A study of Mus musculus with 14 samples.

Results

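The response of mouse ear skin to croton oil after short-term loss of Langerhans cells was read from 7 of the 14 whole-ear samples of the series. These were the 4 LC-DTR croton oil samples and the 3 LC-DTR vehicle samples. Of the 24035 genes listed, 14121 reached at least 1 TPM in at least 3 of the 7 samples and were tested, and 9914 did not. Genes below 1 TPM in any vehicle sample needed croton oil samples to pass. Those below 1 TPM in every vehicle sample could pass through their croton oil samples alone. The filter favoured a rise among both. Il6, Osm, Adamts4, Defb3, Il19 and Il24 below were under 1 TPM in every vehicle sample. TPM, the share of transcripts scaled to 1e+06 per sample, corrects for transcript length and for the total of each sample, so levels of different genes can be set side by side, but it keeps no record of depth.

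In LC-DTR mice the Langerhans cells, which are epidermal dendritic cells, carry the diphtheria toxin receptor (DTR) and are killed by diphtheria toxin (DT). All 7 samples came from ears taken 3 days after DT, so the vehicle samples lacked these cells as well. Skin that still had its Langerhans cells was not analysed here. Both sides of the ear received 20 µl, either vehicle (4 parts acetone to 1 part olive oil) or 1% croton oil dissolved in it, and ears were taken after 6 h. The other 7 samples, 3 vehicle and 4 croton oil, came from LC-DTA mice, which lack Langerhans cells long term, and serve below as the comparison. The labels give no promoter for either transgene, no age and no sex, and leave unsaid whether each sample was a different animal. The p-values therefore measure only the spread between these samples.

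Croton oil holds phorbol esters, which take the place of diacylglycerol and switch on protein kinase C. In keratinocytes this kinase feeds the MAP kinase cascade, which induces AP-1 transcription factors, and the NF-kB pathway, which induces cytokines and chemokines. Painted skin swells within hours, endothelium becomes adhesive, neutrophils enter, and keratinocytes switch from their resting programme to the one seen around wounds.

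Croton oil changed a large share of the transcriptome. Limma called 6080 genes, 43.1% of those tested, at an adjusted p under 0.05 on the log2(TPM + 1) scale, with 2683 (19.0%) higher and 3397 (24.1%) lower. The values of the 2 groups did not overlap for 6836 genes (48.4%). Counts of list members called or without overlap are to be read beside these shares. Large changes were mostly increases. At least 2-fold differences were called for 518 higher genes (3.67% of those tested) and 320 lower genes (2.27%), at least 4-fold for 99 and 7, and at least 8-fold for 17 and 1. The 518 genes held 1.24 to 1.67% of all TPM in the vehicle samples and 4.09 to 5.79% in the croton oil samples. On this scale the change of low genes comes out too small. All log2 differences below are croton oil minus vehicle ± SE, and the median over all genes tested was -0.058.

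**Figure D1:**
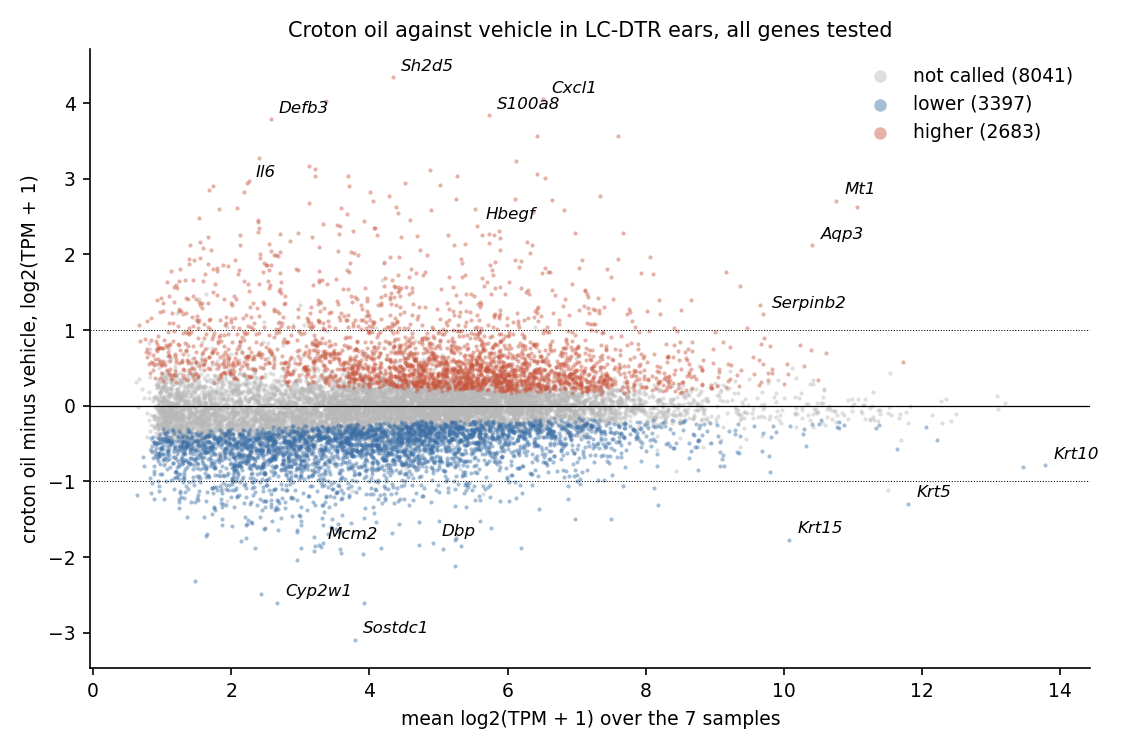
Each point is 1 of the 14121 genes tested, by its mean log2(TPM + 1) over the 7 samples (x axis) and its log2 difference, croton oil minus vehicle (y axis); red genes were called higher and blue genes lower by limma, grey genes were not called, and dotted lines mark 2-fold. Increases reach farther from 0 than decreases, and the keratins Krt5 and Krt10 lie among the most abundant genes and below 0.

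The treatments lay apart on the first principal component (74.2% of the variance). Vehicle samples lay at -33.5, -29.3 and -45.3 on it and croton oil samples at 37.1, 17.1, 15.7 and 38.1. Vehicle sample 3 stood apart from the other vehicle samples on the second component (8.95% of the variance), at -22.5 against 12.2 and 14.5. Its collagen gene Col3a1 was at 1317 TPM against 329 and 272, the guanylate-binding protein gene Gbp2 at 54.7 against 7.73 and 4.18, and the inner root sheath keratin Krt71 at 6.41 against 0.196 and 1.34. Its summed mitosis genes reached 526 TPM against 251 and 291, and Cxcl1 was at 3.26 TPM against 29.9 and 46.4. The labels carry the numbers 10825, 10968 and 11098 for the vehicle samples and 10851 to 10854 for the croton oil samples, and whether a difference follows these numbers was not tested. Ribosomal RNA, listed as Rn45s, lay between 756 and 8480.0 TPM without following the groups. Many counts of called list members shifted when this or another sample was left out, and shifts of over 1.5 times are given beside them.

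**Figure D2:**
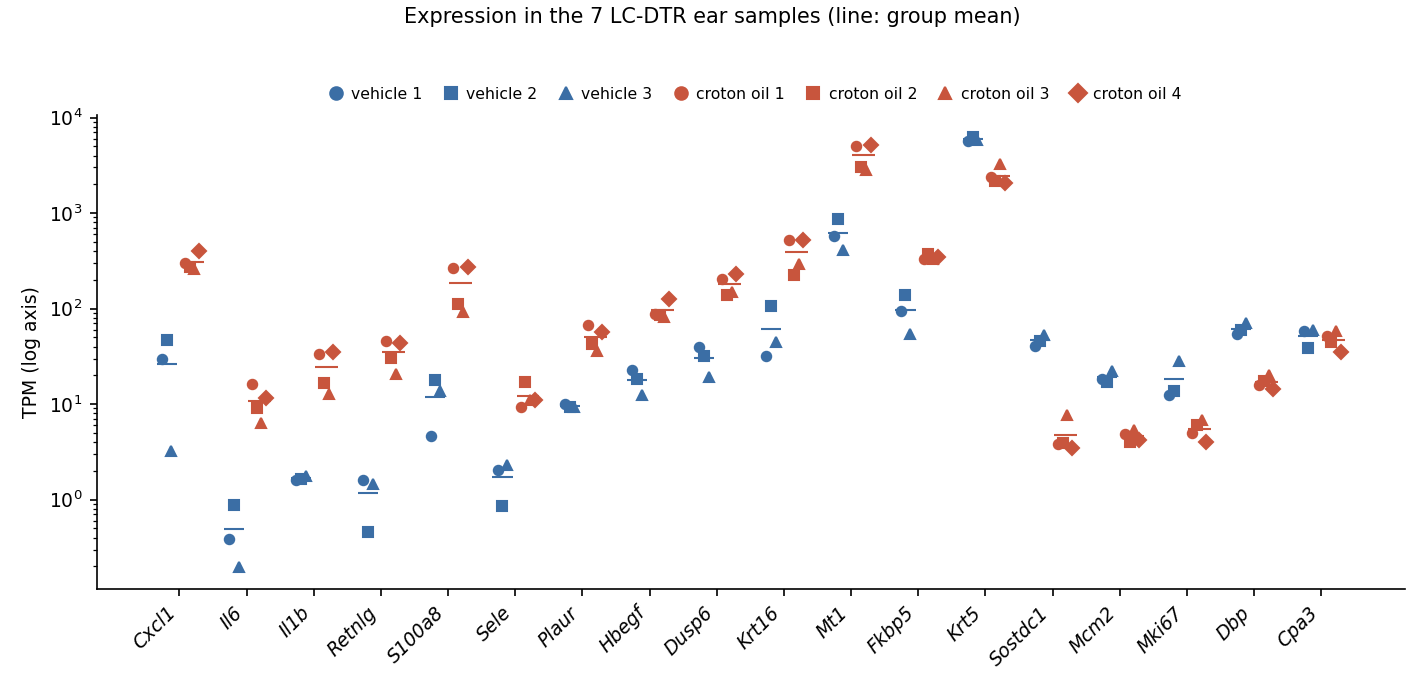
TPM on a log axis of 18 genes in each of the 7 LC-DTR samples; blue symbols are vehicle and red symbols croton oil samples, each symbol shape is 1 sample and the short lines are group means. Of the genes shown the groups overlap for Cpa3 alone, while 48.4% of all genes tested did not overlap. Vehicle sample 3 (triangle) is the lowest vehicle sample for Cxcl1 and the highest for Mki67.

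AP-1 and other immediate early genes mostly rose, and kinase activity was not measured. Of 13 tested AP-1 subunit genes 9 rose and none fell, with a median of 0.96 (6 without croton oil sample 1 and 5 without croton oil sample 4), and of 20 other immediate early genes 18 rose and 1, Klf5, fell, with a median of 1.15. The call of Klf5 (limma adjusted p = 0.0166) was lost without vehicle sample 2 or 3, at 0.0549 and 0.0558. Nr4a3, an orphan nuclear receptor gene that stimulated cells induce at once, was at 3.26, 3.47 and 3.13 TPM in the vehicle samples and at 29.2, 25.8, 21.0 and 25.7 TPM in the croton oil samples. Its log2 difference was 2.62 ± 0.12 (limma adjusted p = 4.46e-05), and the spread within each group was small beside it. Fosl1, which encodes the AP-1 subunit FRA-1, was at 2.71, 4.10 and 1.71 TPM with vehicle and at 20.9, 12.3, 15 and 19.0 TPM with croton oil. Junb, the most abundant AP-1 gene, rose from 236 ± 64.5 TPM (SD, n = 3) to 614 ± 82.6 TPM (SD, n = 4), by 1.40 ± 0.18 (limma adjusted p = 7.34e-04). Fosb did not follow them. It lay at 63.0, 22.7 and 9.70 TPM with vehicle and between 18.4 and 21.7 TPM with croton oil, so that the groups overlapped. Egr4 and Atf3 had uneven vehicle samples. Egr4 was at 15.4, 20.9 and 0.122 TPM with vehicle against 34.8 to 60.9 TPM, and Atf3 at 52.6, 42.8 and 7.58 TPM against 75.6 to 91.7 TPM. Their log2 differences, 2.63 and 1.64, were 1.27 and 0.80 without vehicle sample 3, and both calls were lost when any 1 croton oil sample was left out, at limma adjusted p up to 0.0830 and 0.0742. Klf4, a keratinocyte differentiation factor, was not called, at 893 to 1026 TPM with vehicle and 802 to 1002 TPM with croton oil.

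Genes whose products switch the MAP kinase signal off mostly rose. Of 17 such genes 13 rose and 2 fell, with a median of 0.83. Dusp6, a phosphatase of ERK, was at 39.9, 31.6 and 19.2 TPM with vehicle and at 204, 138, 148 and 228 TPM with croton oil, a log2 difference of 2.56 ± 0.25 (limma adjusted p = 2.86e-04). The nuclear ERK phosphatase gene Dusp5 rose by 1.57 ± 0.15 and Dusp2 by 1.99 ± 0.14. The genes that fell were Dusp10, a phosphatase of JNK and p38, at -0.66 ± 0.15, and Spred2 at -0.40 ± 0.11, whose call was lost without vehicle sample 1 (limma adjusted p = 0.0644). The sensors of phorbol ester themselves moved little. Of 19 genes of protein kinase C and other diacylglycerol-binding proteins or diacylglycerol kinases 2 rose and 3 fell, among them the kinase gene Prkcd at -0.42 ± 0.071, the exchange factor gene Rasgrp1 at -0.74 ± 0.11 and the diacylglycerol kinase gene Dgkd at 0.92 ± 0.093.

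Ligands of the EGF receptor, the growth factor system of keratinocytes, rose, and the receptor Egfr was not called, at 0.12. Of 12 genes tested 6 rose, of which 5 were the ligands Hbegf, Tgfa, Areg, Ereg and Epgn and 1 was Rhbdf2, which directs the shedding protease to them, and 1, the receptor Erbb2, fell by 0.41 ± 0.10. Hbegf was at 23.0, 18.2 and 12.5 TPM with vehicle and at 88.5, 86.7, 82.4 and 127 TPM with croton oil, a log2 difference of 2.38 ± 0.21 (limma adjusted p = 1.92e-04). Tgfa went from 27.5 ± 6.22 to 92.8 ± 18.3 TPM and Areg, at 1.84 ± 1.25 TPM with vehicle, reached 10.2 ± 2.35 TPM. Epgn was at 21.0, 27.7 and 3.18 TPM with vehicle and between 34.3 and 53.7 TPM with croton oil, with a log2 difference of 1.77 (limma adjusted p = 0.0310) that was 0.91 without vehicle sample 3. Its call was lost without croton oil sample 1, 3 or 4, at 0.0619, 0.0581 and 0.0708.

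Of 18 NF-kB subunits and feedback genes 15 rose and none fell (1 without croton oil sample 2), with a median of 0.64. Bcl3, a nuclear partner of NF-kB, was at 6.04, 8.38 and 4.46 TPM with vehicle and at 76.7, 33.9, 42.3 and 76.5 TPM with croton oil, a log2 difference of 2.95 ± 0.30 (limma adjusted p = 3.58e-04). Nfkbiz rose from 26.3 ± 11.4 to 93.3 ± 16.3 TPM. Nfkbia, the inhibitor that NF-kB induces to end its own action, was at 241, 237 and 125 TPM with vehicle and at 380.3, 278, 243 and 334 TPM with croton oil, with a log2 difference of 0.66 ± 0.24 (limma adjusted p = 0.0496). That call was lost without vehicle sample 3 or croton oil sample 1, 2 or 4, at 0.123, 0.106, 0.0647 and 0.110. The subunit gene Relb was not called, at 0.16 ± 0.14.

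The chemokines that call neutrophils stood among the largest increases. Of 10 tested neutrophil-attracting chemokines and growth factors 8 rose and none fell (1 without vehicle sample 2), and of 24 other chemokine genes 12 rose and 3 fell. Cxcl1 was at 29.9, 46.4 and 3.26 TPM with vehicle and at 297, 270.3, 262 and 404 TPM with croton oil, a log2 difference of 4.05 ± 0.68 (limma adjusted p = 0.00222). Cxcl2 was at 13.8, 20.9 and 0.925 TPM and at 68.5, 73.5, 57.1 and 99.6 TPM. In both, the croton oil samples lay close together and the vehicle samples did not, and the log2 differences of 4.05 and 3.12 were 2.99 and 2.04 without vehicle sample 3. The monocyte chemokine genes were steadier. Ccl7 was at 19.5, 19.9 and 16.2 TPM with vehicle and at 269, 115, 140.4 and 251 TPM with croton oil (3.23 ± 0.28, limma adjusted p = 1.92e-04), and Ccl2 rose from 24.8 ± 12.7 to 159.9 ± 48.5 TPM. Ccl20, which attracts cells bearing CCR6, was the most abundant chemokine after croton oil, at 475, 412, 675 and 737 TPM, but its vehicle samples were at 81.7, 202 and 5.21 TPM, and its log2 difference of 3.57 was 2.11 without vehicle sample 3. The chemokines that fell were Cx3cl1, by 0.98 ± 0.11, Ccl22, by 0.57 ± 0.12, and Ccl28, by 0.49 ± 0.15, a call that was lost without vehicle sample 1 or 3 or croton oil sample 1 or 4 (limma adjusted p = 0.0857, 0.0682, 0.0630 and 0.0694).

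Interleukin-1 and interleukin-6 family genes went both ways within each family. Il1b was at 1.62, 1.64 and 1.75 TPM with vehicle and at 33.6, 16.7, 12.7 and 34.9 TPM with croton oil, a log2 difference of 3.13 ± 0.32 (limma adjusted p = 3.42e-04). Il1a, which keratinocytes store, rose from 22.6 ± 5.42 to 59.4 ± 8.39 TPM. The natural antagonist gene Il1rn fell, at 98.1 to 117 TPM with vehicle and 70.5 to 76.5 TPM with croton oil, and so did the alarmin gene Il33, from 74.2 ± 25.6 to 27.9 ± 5.92 TPM. Of the 18 genes of the interleukin-1 and interleukin-36 family 8 rose and 3 fell, with a median of 0.15.

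Of 16 genes of the interleukin-6 family and its receptors 11 rose and 3 fell, with a median of 1.40. Il6 was at 0.391, 0.887 and 0.196 TPM with vehicle and at 16.1, 9.16, 6.27 and 11.7 TPM with croton oil, 22.0-fold on the ratio of the means and 2.94 ± 0.28 in log2 (limma adjusted p = 2.45e-04). Osm, which myeloid cells make, went from 0.223 ± 0.0392 to 3.80 ± 1.31 TPM, and its receptor Osmr, carried by keratinocytes and stroma, from 19.8 ± 2.66 to 66.7 ± 11.1 TPM. Socs3, which these receptors induce and which then blocks them, was at 28.6, 23.7 and 14.8 TPM with vehicle and at 128, 77.1, 68.2 and 146 TPM with croton oil. Among the members that fell were the ligand gene Ctf1, at -0.79 ± 0.13, and the receptor Il11ra1, at -0.40. Il6 and Osm passed the filter through their croton oil samples alone. So did Il19 and Il24 of the interleukin-10 family, near 0 in vehicle samples. Il19 was at 0, 0.118 and 0 TPM with vehicle and at 9.49, 2.87, 1.6 and 29.0 TPM with croton oil, and Il24 at 0, 0.684 and 0.0382 TPM and at 2.91, 1.30, 1.20 and 7.38 TPM. Their croton oil values spread widely, and the call of Il24 was lost without vehicle sample 1 or 3 (limma adjusted p = 0.0686 and 0.0533). Tnf was not called, at 2.22, 6.37 and 1.57 TPM with vehicle and 4.17 to 7.33 TPM with croton oil, while its receptor Tnfrsf1a rose from 237 ± 20.8 to 469.7 ± 50.5 TPM.

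The 120 bases before the RefSeq start sites of 4 of these genes (GRCm38.p6) are shown because each holds a match to the consensus of NF-kB, in capitals, on either strand. They lie at chr5:90891125-90891244 (plus strand) for Cxcl1, chr5:90903779-90903898 (plus) for Cxcl2, chr5:30012994-30013113 (plus) for Il6 and chr12:55492648-55492767 (minus) for Nfkbia, and the matches begin 71, 97, 44 and 29 bases before the start.
Cxcl1: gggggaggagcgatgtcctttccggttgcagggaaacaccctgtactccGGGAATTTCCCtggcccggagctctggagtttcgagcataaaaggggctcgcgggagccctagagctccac
Cxcl2: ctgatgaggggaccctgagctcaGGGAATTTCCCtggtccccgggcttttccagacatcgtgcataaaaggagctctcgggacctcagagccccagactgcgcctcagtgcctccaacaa
Il6: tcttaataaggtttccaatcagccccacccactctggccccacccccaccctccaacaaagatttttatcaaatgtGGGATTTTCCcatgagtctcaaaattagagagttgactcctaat
Nfkbia: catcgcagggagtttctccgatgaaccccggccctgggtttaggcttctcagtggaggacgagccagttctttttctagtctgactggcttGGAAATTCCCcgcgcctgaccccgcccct
The neighbouring genes Cxcl1 and Cxcl2 hold the same 11 capitals, which are 2 overlapping matches. The windows were picked because they hold a match, after those of further genes had been looked at. Those of Il1b, S100a8 and Dusp6, which rose as well, hold neither this consensus nor an AP-1 match.

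Across the 340 genes called higher by at least 2-fold that had a promoter in the table, windows from 250 bases before to 50 after the start held an AP-1 match (TGANTCA, either strand) in 19.4%, against 6.89% of the 10425 tested genes with a promoter, 7.2% of the 236 genes called lower by at least 2-fold and 8.97% of all promoters. The NF-kB consensus was found in 18.5% of the genes higher, 12.5% of those tested and 11.9% of those lower. The share depends on the spelling, which was chosen after others were counted: 3 other spellings gave 1.47, 4.71 and 10.6% of the genes higher against 0.537, 2.09 and 7.42% of those tested. E2F matches (TTTGGCG or TTTCCCG) were in 4.41% of the genes higher, 12.7% of those lower and 9.05% of those tested. In all, 16 patterns were counted, 11 of them added after the calls were seen. Of the added ones, the palindromic glucocorticoid response element stood in 2.94% of the genes higher (10 genes) against 0.432% of those tested, and the TATA box TATAAA in 25.3% against 9.63%. The E-box and D-box shares were 9.41 and 1.18% of the genes higher against 11.4 and 0.652% of those tested. A match is a description of the letters, and base composition, which differs between promoters, was not taken into account.

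Proteases and their inhibitors followed. Of 22 tested genes of plasminogen activation and matrix breakdown 14 rose and 1, the inhibitor Timp3, fell, with a median of 1.26. The call of Timp3, whose groups overlapped, was lost without any 1 of 5 samples, at limma adjusted p up to 0.121. Adamts4, a protease of aggrecan and versican, was at 0.554, 0.449 and 0.424 TPM with vehicle and at 15, 8.66, 9.16 and 10.5 TPM with croton oil, a log2 difference of 2.98 ± 0.17 (limma adjusted p = 8.11e-05). It passed the filter through its croton oil samples alone. Plaur, the urokinase receptor, was at 10.1, 9.34 and 9.33 TPM with vehicle and at 67.0, 42.2, 35.8 and 57.5 TPM with croton oil. Serpinb2, an inhibitor of plasminogen activators, was among the most abundant genes of the list, at 569.7, 519 and 463 TPM and at 1173, 1218, 1057 and 1341 TPM. The stromelysin gene Mmp3 rose from 43.6 ± 7.42 to 123 ± 22.0 TPM. None of these 4 genes overlapped between the groups, and neither did 48.4% of all genes tested.

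AP-1 matches, in capitals, are shown in the 120 bases before the RefSeq start (GRCm38.p6) of 4 genes that rose, at chr7:24462363-24462482 (plus) for Plaur, chr9:7445702-7445821 (plus) for Mmp3, chr1:164048114-164048233 (plus) for Sele, which is described next, and chr8:94172498-94172617 (plus) for the metallothionein gene Mt2. The matches begin 69, 46, 73 and 79 bases before the start.
Plaur: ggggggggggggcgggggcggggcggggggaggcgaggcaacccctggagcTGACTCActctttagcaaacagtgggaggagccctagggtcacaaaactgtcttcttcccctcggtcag
Mmp3: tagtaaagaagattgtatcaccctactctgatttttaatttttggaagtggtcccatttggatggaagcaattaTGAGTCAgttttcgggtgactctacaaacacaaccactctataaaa
Sele: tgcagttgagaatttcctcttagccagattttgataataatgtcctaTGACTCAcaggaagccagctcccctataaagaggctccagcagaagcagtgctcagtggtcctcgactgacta
Mt2: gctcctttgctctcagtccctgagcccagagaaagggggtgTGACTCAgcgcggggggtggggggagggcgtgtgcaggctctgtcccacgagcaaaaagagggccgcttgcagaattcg
These windows too were picked for holding a match.

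Endothelial activation genes rose while genes that mark the endothelium itself mostly did not. Of 19 activation genes 14 rose and none fell, with a median of 1.13, and of 14 blood endothelial genes 2 rose and 2 fell, with a median of -0.014 (1 rose without vehicle sample 2 or 3 or croton oil sample 1 or 3, and 1 fell without any 1 sample but vehicle sample 2 or croton oil sample 2). Sele, which encodes E-selectin, was at 2.03, 0.849 and 2.32 TPM with vehicle and at 9.31, 16.9, 11.1 and 10.9 TPM with croton oil, a log2 difference of 2.27 ± 0.24 (limma adjusted p = 3.90e-04). Selp, which encodes P-selectin, went from 1.43 ± 0.388 to 5.59 ± 1.76 TPM and Icam1, the ligand of leukocyte integrins, from 31.0 ± 11.6 to 89.6 ± 18.1 TPM. Vcam1 was not called, at 3.80 ± 0.480 and 3.29 ± 0.308 TPM. The endothelial genes Pecam1 and Cdh5 differed by -0.011 ± 0.11, not called, and by 0.62 ± 0.13.

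Genes of neutrophils rose in every croton oil sample. Of 21 listed in the files 15 passed the filter, and of these 14 rose, with a median of 2.09. The 6 under the filter included the granule genes Camp, Ltf and Ngp, at 1.23 TPM or below in all 7 samples. Retnlg and Csf3r, described below, did not reach 1 TPM in all 3 vehicle samples and needed croton oil samples to pass. The filter favoured a rise among such members, so the count and the median were not independent of it. The list summed to 239 to 333 TPM in vehicle samples and to 1216, 704, 578 and 1103 TPM in croton oil samples. In vehicle samples Retnlg, Csf3r and S100a8, described next, made up little of this sum, which came mostly from other members. Retnlg, a secreted protein of mature neutrophils, was at 1.6, 0.463 and 1.47 TPM with vehicle and at 46.0, 30.1, 20.6 and 43.4 TPM with croton oil, a log2 difference of 4.03 ± 0.29 (limma adjusted p = 1.08e-04). Csf3r, the G-CSF receptor, was at 0.840, 0.412 and 1.19 TPM and at 11.2, 6.69, 4.94 and 8.65 TPM. S100a8, which stressed keratinocytes express as well, rose from 12.0 ± 6.67 to 185 ± 96.1 TPM. In whole-ear RNA more cells of a type and more RNA per cell cannot be told apart. Croton oil samples 1 and 4 were above samples 2 and 3 for each of these 3 genes.

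Monocyte genes gave a mixed picture. Of 12 tested 4 rose and none fell, with a median of 0.58 (6 rose without vehicle sample 3). Chil3 was at 2.35, 0.849 and 2.48 TPM with vehicle and at 32.7, 23.7, 7.61 and 36.5 TPM with croton oil, and the chemokine receptor Ccr1 rose from 1.44 ± 0.523 to 9.06 ± 3.25 TPM. Ccr2, the receptor that brings monocytes out of the blood, was not called, at 8.87, 5.58 and 7.31 TPM with vehicle and at 8.30, 4.54, 5.50 and 7.40 TPM with croton oil. Its ligand genes Ccl2 and Ccl7 had risen in the same samples.

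**Figure D3:**
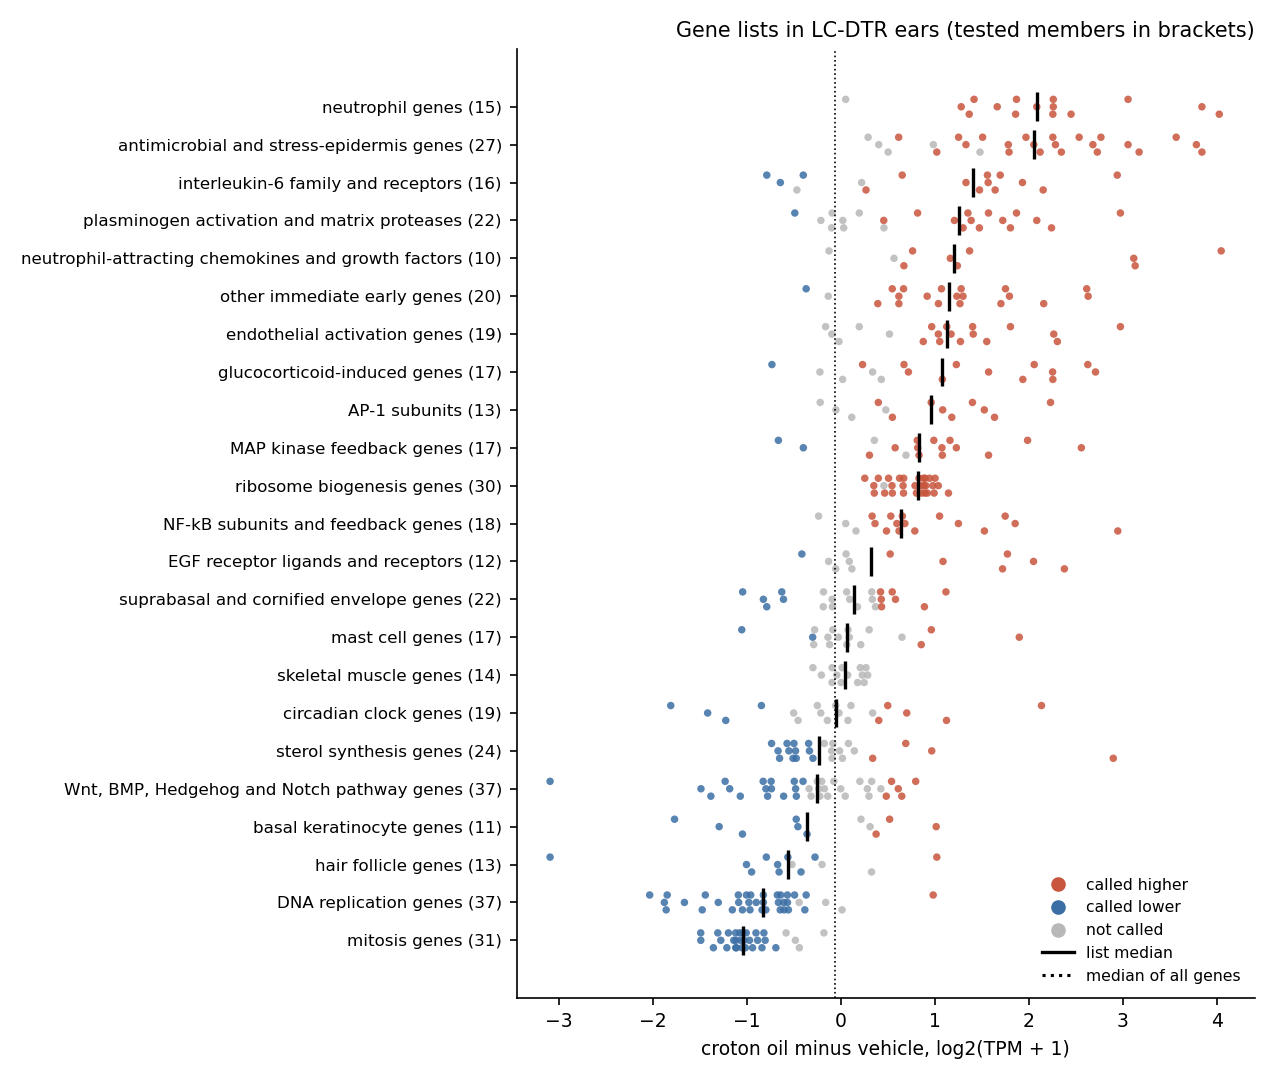
Each point is 1 tested gene of a list by its log2 difference, croton oil minus vehicle (x axis), coloured by limma call; black bars are list medians and the dotted line is the median of all genes tested, -0.058. The neutrophil list has its median at 2.09 and the mitosis list at -1.04, and the skeletal muscle list has no called member.

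Genes known from wounded epidermis rose, although whole-ear RNA does not show in which cells. Of 27 tested antimicrobial and stress genes 22 rose and none fell, with a median of 2.05. Defb3, a beta-defensin gene, was at 0.377, 0.499 and 0.132 TPM with vehicle and at 24.0, 10.3, 13.6 and 26.1 TPM with croton oil, a log2 difference of 3.78 ± 0.29 (limma adjusted p = 1.43e-04). It too passed the filter through its croton oil samples alone. Slpi, an inhibitor of neutrophil elastase, was at 18.1, 32.9 and 13 TPM and at 315, 162, 198 and 365 TPM. The keratins of wounded skin rose, Krt6a from 124 ± 30.6 to 483 ± 56.0 TPM and Krt16 from 60.8 ± 39.8 to 393 ± 155 TPM. The cornifin genes Sprr2d and Sprr2f were the most uneven. Sprr2d was at 4.24 to 7.08 TPM with vehicle and at 60.2, 14.4, 19.5 and 68.3 TPM with croton oil, and Sprr2f at 0.455 to 1.29 TPM and at 13.5, 1.40, 1.91 and 10.8 TPM. The call of Sprr2f (limma adjusted p = 0.0424) was lost without any 1 vehicle sample or without croton oil sample 1 or 4, at up to 0.117. The Sprr2 genes and the stefin genes are near-identical copies whose reads may be shared, so their single values are uncertain. The gene with the largest log2 difference among those named was Sh2d5, an adaptor protein gene, at 1.71, 5.31 and 1.78 TPM and at 106, 42.9, 56.9 and 106 TPM.

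The most abundant keratins of resting skin fell. Krt10 and Krt2, the 2 most abundant genes in vehicle samples, together held 3.01 to 4.20% of all TPM with vehicle and 1.76 to 2.40% with croton oil. Krt10 was at 16228, 18862 and 23109 TPM with vehicle and at 10355, 11458, 13049.7 and 9896 TPM with croton oil (-0.79 ± 0.15, limma adjusted p = 0.00381). The basal keratin Krt5 was at 5733, 6283 and 5839 TPM and at 2372, 2160.1, 3269 and 2069 TPM (-1.29 ± 0.15, limma adjusted p = 5.52e-04). Its partner Krt14 fell less, by 0.46 ± 0.11, and Krt15 more, by 1.77 ± 0.39. Quantile normalization gives the most abundant gene of every sample the same value. Krt10, the most abundant gene in all 7 samples, could therefore only differ by 0 under it. The call of Krt14 was lost there (limma adjusted p = 0.0589). Of 11 basal keratinocyte genes 6 fell and 3 rose, among the latter Itga6, at 0.52 ± 0.092, and Trp63. Differentiation did not move as a block: of 22 suprabasal and cornified envelope genes 7 rose, among them involucrin, Ivl, from 144 ± 27.7 to 309.6 ± 10.2 TPM, 5 fell, among them the transglutaminase gene Tgm3, by 1.04 ± 0.25, and loricrin, Lor, was not called, at 4851 ± 488 and 5067 ± 425 TPM. Without vehicle sample 3, 4 of this list rose and 6 fell, and 4 rose without vehicle sample 1.

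Of 28 junction genes tested 7 rose (25%) and 9 fell (32.1%), against 19.0% and 24.1% of all genes tested. The connexin gene Gjb2 was at 32.8, 47.1 and 55.4 TPM with vehicle and at 184, 134, 134 and 194 TPM with croton oil (1.83 ± 0.19, limma adjusted p = 4.04e-04), and the desmosomal cadherin gene Dsg3 rose from 81.0 ± 5.80 to 209.9 ± 57.4 TPM. Claudin genes went both ways, Cldn4 from 229 ± 50.8 to 463 ± 49.3 TPM and Cldn8 from 5.16 ± 0.474 to 0.963 ± 0.553 TPM. The water and glycerol channel gene Aqp3 had one of the largest gains in TPM, from 535, 613 and 621 to 2738, 2192, 2176 and 3309.

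Metallothioneins, which bind zinc and which metals, oxidants and glucocorticoids induce, gained more TPM than any other called gene. Mt1 was at 579, 867 and 412 TPM with vehicle and at 5088, 3018, 2841 and 5195 TPM with croton oil, and Mt2 rose from 773 ± 201 to 4844 ± 1484 TPM, by 2.63 ± 0.25 (limma adjusted p = 2.86e-04). Together they held 0.0964 to 0.181% of TPM with vehicle and 0.638 to 1.13% with croton oil. Slc39a8, a zinc importer gene, was at 4.90, 8.18 and 4.10 TPM and at 44.9, 42.4, 40.4 and 46.0 TPM. Of 28 Nrf2 target and redox genes 12 rose and 8 fell, with a median of 0.032 (3 fell without vehicle sample 3, 4 without croton oil sample 4 and 5 without vehicle or croton oil sample 1). The sulfiredoxin gene Srxn1 rose by 1.10 ± 0.10, while Gstm1, a glutathione transferase gene, fell by 0.92 ± 0.086 and Tkt, of the pentose phosphate pathway, by 0.69 ± 0.10.

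Of 17 glucocorticoid-induced genes 12 rose and 1 fell, with a median of 1.08. Fkbp5, a co-chaperone of the glucocorticoid receptor, was at 94.5, 138 and 54.6 TPM with vehicle and at 333, 369.7, 332 and 348 TPM with croton oil, a log2 difference of 1.94 ± 0.25 (limma adjusted p = 7.80e-04). Zbtb16 was at 11.4, 17.0 and 7.58 TPM and at 31.4, 45.5, 35.5 and 33.0 TPM, and Pdk4, a brake on pyruvate oxidation, rose from 13.8 ± 3.86 to 70.0 ± 19.6 TPM. The gene that fell was the receptor itself, Nr3c1, at -0.73 ± 0.14. Tsc22d3, another glucocorticoid target, was not called, at 182 to 412 TPM and 209 to 396 TPM. Several members of this list, Mt1, Mt2, Lcn2 and Dusp1, are on other lists as well. Of 19 clock genes 5 rose (26.3%) and 4 fell (21.1%), against 19.0% and 24.1% of all genes tested. The output genes Dbp, Per3, Hlf and Tef fell, Dbp from 54.5, 60.1 and 70.2 TPM to 15.7, 17.3, 20.0 and 14.6 TPM (-1.81 ± 0.12, limma adjusted p = 1.03e-04), and the repressor Nfil3 rose from 17.5 ± 5.0 to 79.3 ± 15.7 TPM. The hour at which ears were taken is not in the labels.

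Cell cycle genes fell across the 4 croton oil samples. Of 37 tested DNA replication genes 33 fell and 1, Rrm2, rose, with a median of -0.82, and of 31 mitosis genes 27 fell and none rose, with a median of -1.04. Without vehicle sample 3, which had the highest levels, 29 and 23 fell. Mcm2, of the replicative helicase, was at 18.3, 17.0 and 22.1 TPM with vehicle and at 4.84, 3.97, 5.38 and 4.20 TPM with croton oil, a log2 difference of -1.85 ± 0.13 (limma adjusted p = 1.08e-04). E2f2, which drives such genes, was at 16.2, 16.5 and 15 TPM and at 2.59, 5.07, 4.95 and 2.47 TPM. Uhrf1, which keeps DNA methylation through replication, fell from 16.9 ± 5.91 to 3.25 ± 0.578 TPM. Mki67, the proliferation marker, was at 12.4, 13.7 and 28.3 TPM and at 5.02, 6.10, 6.86 and 3.98 TPM. Pcna, the sliding clamp, was not called, at 153, 139 and 157 TPM and at 149, 145, 145 and 166 TPM. Rrm2, a ribonucleotide reductase subunit, went from 25.5 ± 6.16 to 52.2 ± 14.9 TPM, and Cdkn1a, which encodes the cell cycle inhibitor p21, from 351 ± 53.7 to 685 ± 22.8 TPM.

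The window of Mcm6, a further helicase subunit that fell from 53.7 ± 7.95 to 24.6 ± 1.32 TPM, is shown since it holds 2 E2F matches, in capitals, 110 and 47 bases before the start (chr1:128359706-128359825, minus strand), whereas that of Mcm2 held none of these letters.
Mcm6: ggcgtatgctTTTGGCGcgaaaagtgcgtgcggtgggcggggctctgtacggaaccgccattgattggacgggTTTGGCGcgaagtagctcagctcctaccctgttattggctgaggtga

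Growth at the level of ribosomes went the other way. Of 30 ribosome biogenesis genes 29 rose and none fell, with a median of 0.82, and only 3 of them by 2-fold or more. Wdr43 was at 69.0, 66.0 and 56.2 TPM with vehicle and at 129, 113, 118 and 147 TPM with croton oil (0.98 ± 0.11, limma adjusted p = 4.60e-04), and Gnl3, which encodes nucleostemin, rose by 1.00 ± 0.13. Myc, which drives this programme, rose from 102 ± 22.5 to 249.9 ± 38.9 TPM, and Odc1, a Myc target and the first enzyme of polyamine synthesis, from 289 ± 71.2 to 977 ± 158 TPM.

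Genes of hair follicle and patterning signals fell. Of 13 tested hair follicle genes 9 fell and 1, Krt17, rose, with a median of -0.56, and 11 of the 24 listed were under the filter. Without vehicle sample 3, 2 hair follicle genes rose. Of 37 Wnt, BMP, Hedgehog and Notch genes 16 fell and 5 rose, with a median of -0.25. Sostdc1, whose product blocks BMP and Wnt signals, was at 40.6, 46.0 and 52.5 TPM with vehicle and at 3.86, 3.95, 7.74 and 3.43 TPM with croton oil, the only decrease of at least 8-fold (-3.09 ± 0.22, limma adjusted p = 1.08e-04). The ligand gene Wnt3 was at 25.8, 22.1 and 32.3 TPM and at 9.37, 7.53, 10.4 and 8.04 TPM, and Axin2, a target of Wnt signalling, fell from 40.8 ± 5.96 to 22.7 ± 4.37 TPM. Notch1 fell by 0.74 ± 0.11. The BMP target gene Id1 rose, from 249 ± 28.6 to 436 ± 70.4 TPM. Other large decreases were those of Cyp2w1, a cytochrome P450 gene, from 17.8 ± 7.78 to 1.95 ± 0.361 TPM, of Trp73, a p53 family gene, from 13.8 ± 4.20 to 1.71 ± 1.08 TPM, and of Mycl from 86.3 ± 4.01 to 20.6 ± 8.92 TPM.

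Metabolic genes moved by less. Of 24 sterol genes 12 fell and 4 rose, with a median of -0.24. The enzyme genes Fdps and Nsdhl fell by 0.50 ± 0.071 and 0.74 ± 0.10. Ch25h, which makes the immune oxysterol 25-hydroxycholesterol, was at 2.34, 5.90 and 2.10 TPM with vehicle and at 39.3, 23.6, 25.8 and 33.5 TPM with croton oil (2.90 ± 0.28, limma adjusted p = 2.86e-04). Of 24 glycolysis and hypoxia genes 13 rose and 4 fell, with Hk2 up by 1.46 ± 0.10 and Tpi1 down by 0.68 ± 0.092. Of 30 nuclear genes of oxidative phosphorylation 11 fell and 2 rose, with Atp5o the lowest at -0.31. Without vehicle sample 3 or croton oil sample 4, 4 of them fell, without croton oil sample 1, 6 fell, and without vehicle sample 1, 1 rose. Of 23 collagen and elastic fibre genes 9 fell and 1, the crosslinking enzyme gene Lox, rose. Without vehicle sample 2, 15 of the 23 fell, and 5 fell without vehicle sample 3 or croton oil sample 4.

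Further pathways gave smaller or mixed results, beside 19.0% of all genes tested called higher and 24.1% called lower. Of 17 pattern recognition receptor genes 9 rose and 3 fell, with the sensor Nod2 at 2.40 and the flagellin receptor Tlr5 at -1.17. Of 18 TNF family genes 9 rose and 1 fell (none without any 1 of vehicle samples 1 and 2 and croton oil samples 1 to 3), and of 22 prostaglandin and leukotriene enzyme genes 8 rose, among them Ptges at 1.47, and 3 fell, among them the phospholipase gene Pla2g4a at -0.79. Of 22 p53 target genes 10 rose and 2 fell (none without vehicle sample 1 or croton oil sample 1 or 4, and 1 without vehicle sample 2 or 3), of 22 actin and serum response factor targets 11 rose and 3 fell, and of 18 heat shock genes 6 rose and 2 fell (1 without vehicle sample 1 or 2 or croton oil sample 1 or 4). Of 22 ceramide genes of the skin barrier 9 rose and none fell (1 without croton oil sample 2 or 3), led by the ceramide synthase gene Cers3, from 68.9 ± 9.48 to 147 ± 12.7 TPM. Of 21 unfolded protein response genes 9 rose and 3 fell (4 rose without croton oil sample 4, 5 without croton oil sample 1 and 6 without vehicle sample 1 or croton oil sample 3). Of 17 retinoid genes 4 rose, with Aldh1a3, which makes retinoic acid, at 1.35, and 7 fell. Of 22 fatty acid genes 6 rose and 7 fell, with the regulator Ppara at -0.92. Of 23 interferon-stimulated genes 3 rose and 1 fell, with a median of -0.074, whereas without vehicle sample 2, 1 rose and 5 fell. Of 9 interleukin-10 and interleukin-20 family genes 4 rose and 3, the receptors Il20ra, Il20rb and Il22ra1, fell. The call of Il22ra1 was lost without vehicle sample 1 or 2 or croton oil sample 4, at limma adjusted p up to 0.0778.

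Genes that mark resident cells served as a measure of tissue make-up. Their counts stand beside 19.0% of all genes tested called higher and 24.1% called lower. None of 14 skeletal muscle, 9 Schwann cell or 6 melanocyte genes was called, with medians of 0.045, 0.16 and -0.26. Without vehicle sample 1, 3 skeletal muscle and 2 Schwann cell genes were called higher, and without vehicle sample 2, 2 and 1 were called lower. B cell genes and basophil and eosinophil genes were all under the filter, at sums of 2.61 TPM or below. Of 15 resident macrophage genes 2 rose and 2 fell (4 rose without vehicle sample 3, and 1 rose and 4 fell without vehicle sample 2). Of 15 fibroblast genes 2 rose and 3 fell (none rose without vehicle sample 2, and 1 without any other 1 sample but croton oil sample 2). Of 15 adipocyte genes 2 rose and 3 fell (none fell without vehicle sample 1, and 1 without vehicle sample 3 or croton oil sample 1 or 4), with the lipid droplet gene Plin1 at -1.69, a call lost without vehicle sample 1 or 3 (limma adjusted p = 0.0509 and 0.0518). Of 14 sebaceous gland genes 2 rose and 3 fell. Without any 1 sample at most 1 sebaceous gene rose, 6 fell without croton oil sample 2, 5 without croton oil sample 3, and 1 without vehicle sample 1 or 2 or croton oil sample 1 or 4. Of 13 cartilage genes 1 rose and 3 fell. Without vehicle sample 1, 2 cartilage genes rose and 1 fell, without vehicle sample 2 none rose and 5 fell, and without vehicle sample 3 or croton oil sample 3 or 4 none rose. Of 6 lymphatic genes 1 rose (2 without vehicle sample 3 or croton oil sample 4). Of 14 T cell genes 2 rose (1 without any 1 sample but croton oil sample 2) and 2 fell, among them the T cell receptor gene Cd3g, at -0.77 ± 0.15 (5 fell without vehicle sample 3). Of 17 mast cell genes 3 rose, 2 fell and 12 were not called. The mast cell protease genes overlapped between the groups, Cpa3 at 57.8, 38.3 and 59.0 TPM with vehicle and at 52.0, 44.6, 57.8 and 35.4 TPM with croton oil, and Cma1 at 50.4 to 87.3 TPM and 50.6 to 76.4 TPM. Ms4a2, the beta chain of the IgE receptor, fell from 3.22 ± 0.741 to 1.05 ± 0.453 TPM, and Fcer1a, its alpha chain, rose from 1.33 ± 0.496 to 3.52 ± 0.732 TPM. Srgn and Il1rl1, the other members that rose, are expressed by further leukocytes, and the other member that fell was Rab27b, at -0.30. Cd207, which encodes langerin of Langerhans cells and some dermal dendritic cells, was under the filter, at 0.198, 0.105 and 0.474 TPM with vehicle and at 1.88, 0.883, 0.362 and 1.59 TPM with croton oil. Of 12 tested Langerhans and dendritic cell genes 5 rose, among them Ccr7, the homing receptor of migrating dendritic cells, from 0.906 ± 0.287 to 2.40 ± 1.10 TPM, and 2 rose without vehicle sample 2 or croton oil sample 1 and 3 without croton oil sample 4. The call of Ccr7 was lost without any of these and without vehicle sample 3, at limma adjusted p up to 0.0944. The class II gene H2-Ab1 was not called, at 87.7 to 154 TPM and 93.6 to 156 TPM.

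The croton oil samples differed in the size of the response. Over the 518 genes called higher by at least 2-fold the median log2 difference from the vehicle mean was 1.72, 1.24, 1.19 and 1.59 in croton oil samples 1 to 4, and over the 320 genes lower by at least 2-fold it was -1.40, -1.09, -0.98 and -1.45. These genes were chosen on the same samples, so the values are a description. Medians of the neutrophil list were 2.56, 1.86, 1.62 and 2.25 and those of the antimicrobial and stress list 2.73, 1.27, 1.69 and 2.38. Other immediate early genes were at 1.18, 1.10, 0.96 and 1.33 and DNA replication genes at -1.0, -0.71, -0.78 and -0.87. Glucocorticoid-induced genes were at 1.38, 1.26, 0.60 and 1.04, so in that list samples 1 and 2 were farthest from vehicle. Whether painting, timing or the animals differed between these samples was not tested.

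**Figure D4:**
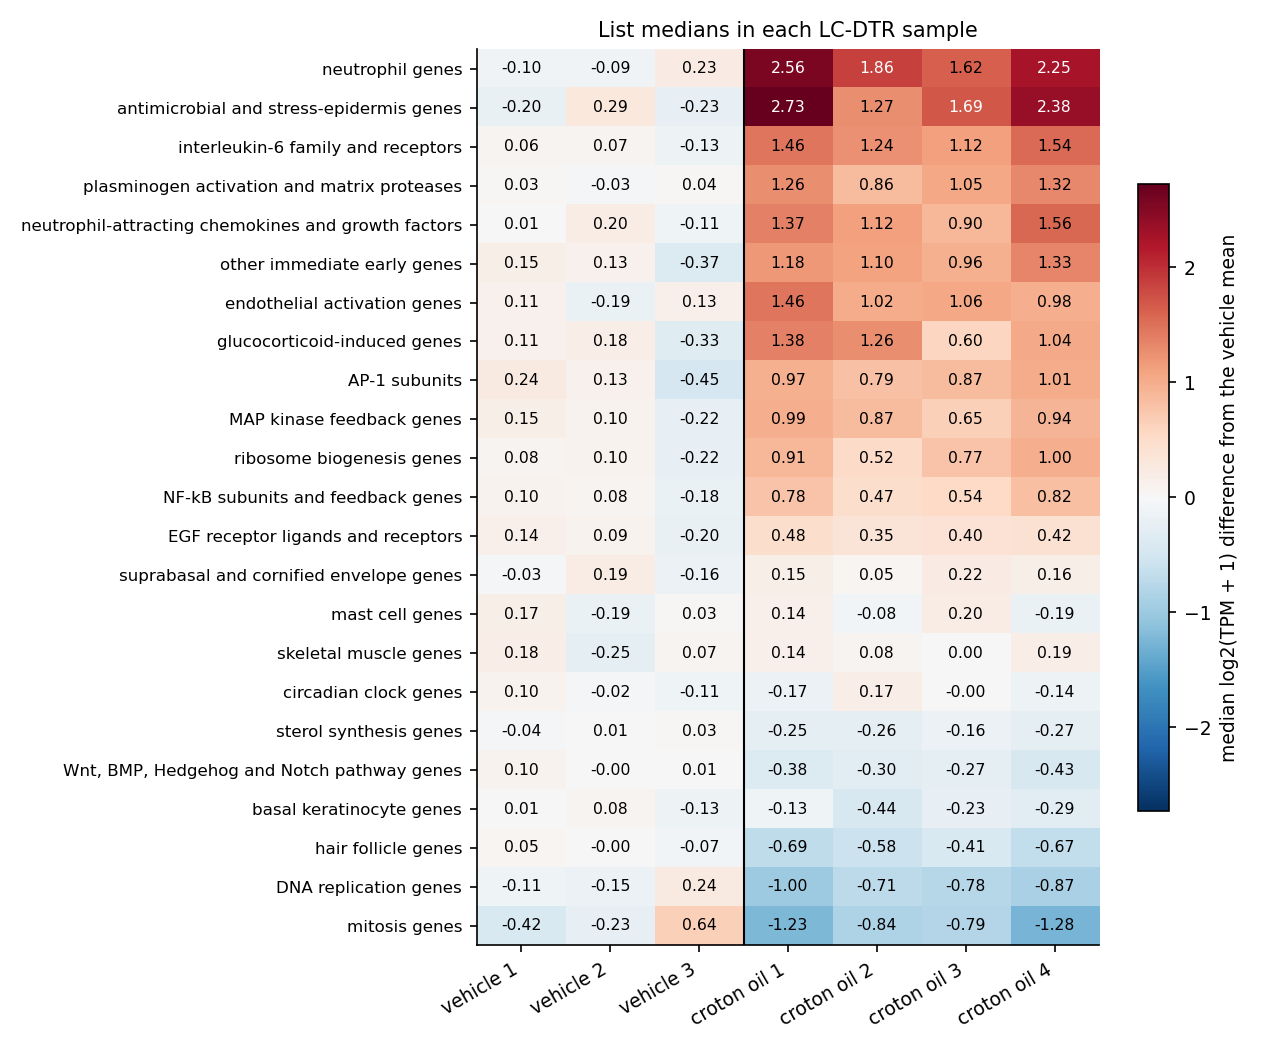
Median log2(TPM + 1) difference from the vehicle mean over the tested genes of each list (rows) in each of the 7 LC-DTR samples (columns), in red above and in blue below the vehicle mean. Croton oil samples 1 and 4 have the highest values for neutrophil genes, 2.56 and 2.25, and DNA replication genes are at -1.0 to -0.71 in the 4 croton oil samples.

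The croton oil response of LC-DTR ears was then set against that of LC-DTA ears, with no sample in common. Of 14693 genes tested over the 14 samples, the response was higher in LC-DTR for 1848 (12.6%) and lower for 1541 (10.5%) by limma's test of the difference. Among inflammatory genes the difference of responses was not called for Cxcl1, at 0.16 ± 0.79, Il1b, S100a8, Krt6a, Hbegf, Dusp6 or Bcl3, which does not show that the responses were alike. Without LC-DTR vehicle sample 3 the response was called lower in LC-DTR for Cxcl1, by 0.90 (limma adjusted p = 0.0358), and for Krt6a, by 0.52 (0.0482). The same held for Ccl20, at -2.69 (limma adjusted p = 0.00308), and for the EGF receptor ligands Epgn, Areg and Tgfa, at -2.17, -1.26 and -0.71 (0.00123, 0.0162 and 0.0313), whose differences were not called with all 14 samples. It also held for Cd3g and Rasgrp1, at -0.58 and -0.48 (limma adjusted p = 0.0360 and 0.0387), while Pecam1 was called higher, at 0.45 (0.0400). Il6 and Osm had the lower response in LC-DTR, by 1.03 ± 0.35 and 0.73 ± 0.24 (limma adjusted p = 0.0446 and 0.0401), calls that were lost under 11 of the 14 fits that left out 1 sample, at up to 0.108 for each. For Osm the difference had the other sign, at 0.094, with a pseudocount of 0.1.

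The cell cycle genes set the genotypes apart. Of 38 DNA replication genes tested in all samples, 34 had a lower response in LC-DTR and none a higher one, and their median response in LC-DTA was 0.10. Mcm2 had a response of -1.85 ± 0.13 in LC-DTR, while in LC-DTA it was at 13.7 ± 1.09 TPM with vehicle and 17.9 ± 1.57 TPM with croton oil, a difference of responses of -2.22 ± 0.15 (limma adjusted p = 8.28e-06). Hells, Mcm5, Rbl1 and Uhrf1 were the other members with the lowest p, with differences of responses of -2.20, -2.25, -1.56 and -2.40. Of 31 mitosis genes 20 had the lower response in LC-DTR (12 without LC-DTA vehicle sample 3). The basal keratin Krt5 fell in both genotypes, and by 0.79 ± 0.19 more in LC-DTR.

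Glucocorticoid-induced genes differed in the opposite direction. Of 17 tested 12 had a higher response in LC-DTR and none a lower one, and their median response in LC-DTA was -0.48. Fkbp5 in LC-DTA was at 67.0 ± 5.48 TPM with vehicle and 54.6 ± 10.5 TPM with croton oil, a difference of responses of 2.24 ± 0.31 (limma adjusted p = 6.18e-04). Zbtb16, Pdk4, Mt1 and Klf9 had differences of 2.51, 1.75, 1.64 and 1.32. Of 19 clock genes 10 had the higher response in LC-DTR and none a lower one. Their median response was -0.94 in LC-DTA, where 15 were called lower and 2 higher. Of all 14693 genes tested, 5067 were called lower and 3552 higher in LC-DTA. In LC-DTR the median of the clock genes was -0.054, with 5 higher and 4 lower. Serpina3c, Angptl7, Gpx3, Wnt11 and Aldh1a1 had the lowest p among genes with the higher response in LC-DTR; each rose there and fell in LC-DTA, although the rise of Aldh1a1 was not called without LC-DTR vehicle sample 2 or 3 (limma adjusted p = 0.0547 and 0.0545) and that of Wnt11 without sample 2 (0.0513). Serpina3c had a difference of 2.51 ± 0.16 (limma adjusted p = 5.37e-06). Serpina3 genes are near-identical copies, so that value is uncertain.

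Monocyte genes also separated the genotypes. Of 13 tested, 7 had the lower response in LC-DTR and none the higher (up to 2 when 1 sample was left out), and Ccr2, at 5.74 ± 0.677 TPM in LC-DTA vehicle samples, reached 37.9 ± 5.31 TPM after croton oil there, a difference of responses of -2.68 ± 0.25 (limma adjusted p = 8.20e-05). The neutrophil chemokine gene Cxcl5 reached 1.86 ± 0.512 TPM in LC-DTR and 14.2 ± 6.33 TPM in LC-DTA, a difference of -2.33 ± 0.34. Genotype, the interval since Langerhans cell loss and DT itself cannot be told apart in this design, since the labels give DT for LC-DTR mice only. The label numbers, 10575 to 10797 for LC-DTA and 10825 to 11098 for LC-DTR samples, also split by genotype. Anything that follows these numbers cannot be told apart from genotype either.

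**Figure D5:**
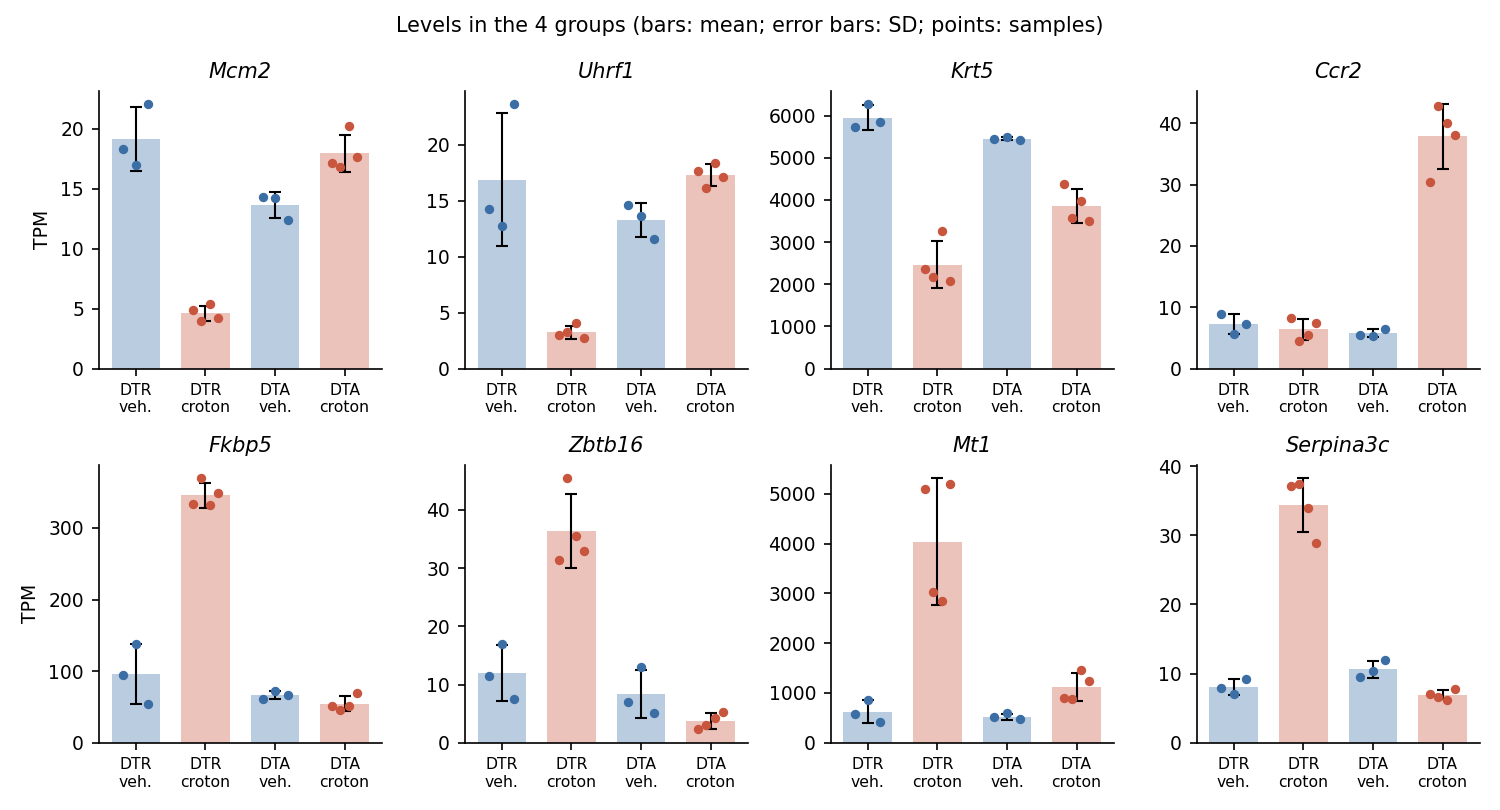
TPM of 8 genes in the 4 groups (bars are means, error bars SD, points samples; 3 vehicle and 4 croton oil samples for each genotype). Mcm2 and Uhrf1 are lower with croton oil in LC-DTR and not in LC-DTA, Ccr2 is higher with croton oil in LC-DTA, and Fkbp5, Zbtb16 and Serpina3c are higher with it in LC-DTR.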

How the data were processed

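Whole-ear mRNA was sequenced from stranded libraries in 4 groups. Per the submitters' processing notes cutadapt, HISAT2, Subread and featureCounts and the mm10 build were used; versions, the annotation and how TPM were derived are not stated there. The authors deposited TPM values, so depth is unknown and counts were not recovered. Of 24062 rows 27 named as dates were dropped (0.124 to 0.145% of TPM). Genes with at least 1 TPM in at least 3 of the 7 LC-DTR samples were tested with limma 3.58.1 (R 4.3.3; trend, Benjamini-Hochberg adjustment over all genes tested, called at adjusted p under 0.05) on log2(TPM + 1). The difference of responses was fitted over all 14 samples. Simulated data held 14121 genes, 200 of them changed. Limma called 5, 32, 44 and 49 of 50 genes changed by 1.25, 1.5, 2 and 4-fold, and 12 of its 142 calls were false. The changed genes were drawn from those with a mean log2(TPM + 1) above 2, and the noise was normal and independent. In the ears 43.1% of the genes tested were called, so these rates need not hold for them.

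The comparison and the 57 gene lists (1144 entries, 1133 found) were chosen with earlier results of these data known. The rule for named genes took the 30 called genes with the largest log2 difference in each direction (at least 5 TPM in 1 group, no overlap, predicted genes passed over), the 15 with the largest gain and the 15 with the largest loss of TPM, the 20 most abundant in vehicle samples, up to 20 that were at most 0.1 TPM in one group and at least 1 TPM in the other, the 20 with the widest croton oil spread, the 5 with the lowest p in each direction of the difference of responses, up to 6 members of each list and those against it, and Cd207, Epcam, Hbegf, Mrgprd, Cpa3, Cma1, Mcpt4, Tpsb2 and Kit. Fewer were used, some results are not reported here, and genes outside it, such as Klf4, Fosb, Col3a1, Krt71 and Gbp2, were chosen after their values were seen. Promoters were matched by symbol to RefSeq windows (GRCm38.p6) for 10425 of the genes tested. Alternatives were other pseudocounts, filters, scalings, limma settings, a replicate block and leaving out each sample.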

Additional observations from a re-analysis of the deposited data

Results flagged for a closer look

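For 8 of the 174 named genes checked, 1 of the 4 LC-DTR croton oil samples lay apart from the other 3 by Dixon's test on log2(TPM + 1). Chance alone marks about 1 group in 20, so this count is near the one chance would give. Croton oil sample 2 was highest for the secreted protein gene Angptl7, at 933 TPM, and for Klf4, at 1002 TPM. Croton oil sample 3 was highest for Cyp2w1, at 2.49 TPM, for the BMP and Wnt antagonist gene Sostdc1, at 7.74 TPM, and for loricrin, Lor, at 5704 TPM. Croton oil sample 4 was highest for Hbegf, at 127 TPM, and lowest for Fosb, at 18.4 TPM. Croton oil sample 1 was highest for the hair keratin Krt71, at 0.430 TPM, a gene under the filter.

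The croton oil response differed between LC-DTR and LC-DTA for 59 of the 171 named genes tested, by limma's test of the difference, against 23.1% of all genes tested. The named genes were chosen with these data known, so this share is a description. Values are the LC-DTR response minus the LC-DTA response in log2.

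The response was higher in LC-DTR for 29 of them. The widest differences were those of Zbtb16 (2.51), Serpina3c (2.51), Fkbp5 (2.24), Angptl7 (1.99), Aldh1a1 (1.80), Wnt11 (1.76), Pdk4 (1.75), Tsc22d3 (1.75) and Mt1 (1.64). They were followed by Gpx3 (1.55), Nr4a3 (1.33), Klf9 (1.32), Mt2 (1.23), Nfil3 (1.16), Sele (1.08), Slc39a8 (0.90), Il20ra (0.84), Plaur (0.83) and Odc1 (0.80). The narrowest were those of Lox (0.80), Dgkd (0.77), Cdh5 (0.73), Klf4 (0.70), Dusp5 (0.61), Cldn4 (0.57), Il20rb (0.53), Lor (0.46), Cdkn1a (0.43) and Il11ra1 (0.36).

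The response was lower in LC-DTR for 30 of them. The widest differences in this direction were those of Ccr2 (-2.68), Uhrf1 (-2.40), Cxcl5 (-2.33), Mcm5 (-2.25), Mcm2 (-2.22), Hells (-2.20), Ch25h (-1.59), Rbl1 (-1.56), Wnt3 (-1.44), Mki67 (-1.35) and E2f2 (-1.31). Next came Mcm6 (-1.20), Il33 (-1.20), Ccr1 (-1.11), Il6 (-1.03), Aldh1a3 (-0.97), Tgm3 (-0.89), Nsdhl (-0.86), Pla2g4a (-0.80), Krt5 (-0.79), Krt2 (-0.77) and Krt14 (-0.76). The narrowest in this direction were those of Osm (-0.73), Il1rn (-0.67), Tpi1 (-0.65), Fdps (-0.64), Krt10 (-0.63), Tkt (-0.62), Rab27b (-0.52) and Pcna (-0.51).

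Leaving out 1 of the 14 samples ended the call of the difference, in at least 1 such fit, for Aldh1a3, Cdkn1a, Cldn4, Il11ra1, Il20rb, Il6, Krt10, Lor, Mt2, Odc1, Osm, Plaur, Sele and Tgm3, and the highest limma adjusted p then reached was 0.129, for Il20rb. Without LC-DTR vehicle sample 3 the limma adjusted p was 0.0515 for Cdkn1a, 0.0775 for Cldn4, 0.0560 for Il11ra1, 0.102 for Il20rb, 0.0560 for Krt10, 0.0704 for Odc1, 0.0683 for Osm, 0.0535 for Plaur and 0.0757 for Tgm3.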

How the results depend on the processing

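The counts of genes called at 2-fold or more depended on the pseudocount. They were 299 higher and 97 lower with a pseudocount of 5, and 644 higher and 546 lower with 0.1, against 518 and 320. Leaving out 1 sample gave 2020 to 2644 genes higher and 2341 to 3360 lower, and 448 to 573 and 232 to 395 at 2-fold or more. For the difference of responses it gave 1154 to 2163 genes with the higher and 1060 to 1647 with the lower response in LC-DTR, with 1154 reached without LC-DTA vehicle sample 2. With the replicate number as a block 1949 genes were called higher and 2029 lower, and 1439 and 1221 for the difference of responses. The numbers were not taken as pairs, since deviations of same-numbered samples correlated at 0.110, -0.211 and 0.0888, and samples did not all correlate best with their own number. Of 152 named genes called in LC-DTR 132 kept their call under every alternative run and 20 lost it under at least 1; of 59 called differences of responses 43 kept it and 16 lost it. Under quantile normalization Krt10 differed by 0 in LC-DTR, as the method sets for a gene that is highest in every sample. The difference of responses of Krt10 was 0.039, also held near 0 by the method. Only LC-DTA croton oil sample 2 had another gene, Krt2, as the highest. The call of Krt14 was lost under this normalization (limma adjusted p = 0.0589). The difference of responses of Cxcl1 was -0.90 without LC-DTR vehicle sample 3 and up to 0.84 without another sample, against 0.16, and that of Osm 0.094 with a pseudocount of 0.1. The cause of the other shifts was not tested. TPM keep no depth, so the precision of low genes is unknown, and a share of TPM can change because other genes do.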
